A study of Mus musculus with 10 samples.

Results

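The nuclear-encoded subunits of the mitochondrial respiratory chain were examined in whole mouse lens. They were taken as the genes whose single-symbol probe sets match the Ndufa, Ndufb, Ndufc, Ndufs and Ndufv (complex I), Sdha to Sdhd (complex II), Uqcr (complex III), Cox4 to Cox8 (complex IV) and Atp5 (complex V) symbols, with the brightest probe set standing for each gene. This gave 81 genes of the 18194 with a named probe set, namely 35 of complex I, 4 of complex II, 8 of complex III, 17 of complex IV and 17 of complex V. Of these, 78 were bright enough to be tested among 13432 genes. Dim probe sets kept out Ndufb4, Cox7b2 and Cox8b.

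The lenses were labelled Klf4CN, for a conditional null of the zinc finger transcription factor Klf4, or wild type (WT). At postnatal day 56 (PN56), in young adults, there were 2 arrays of Klf4CN and 2 of WT lenses, each from a separate preparation of the lenses of 3 mice. At embryonic day 16.5 (E16.5) there were 3 arrays of Klf4CN and 3 of WT lenses, each from the lenses of 5 embryos. The labels give neither the Cre driver nor the strain, and every array held pooled animals, so the spread between arrays is that between pools.

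Complexes I to IV pass electrons from NADH and succinate to oxygen and, except for complex II, pump protons across the inner mitochondrial membrane. Complex V, the ATP synthase, makes ATP as the protons flow back. Catalysis lies in a few core subunits, some of them made inside the mitochondrion from its own DNA, while most of the nuclear genes code for small accessory subunits that stabilise a complex, join its copies or help its assembly. In the lens, epithelial cells and young outer fibre cells hold mitochondria, and fibre cells destroy them with their other organelles as they mature.

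Several features of the arrays bear on what follows. The signal of Klf4 itself was higher, not lower, in lenses labelled Klf4CN: 731.8 and 702.2 in Klf4CN against 156.5 and 213.5 in WT lenses at PN56 (log2 difference 1.88, limma adjusted p = 0.00422), and 804.8 to 1360 in Klf4CN against 428.4 to 1015 in WT lenses at E16.5 (0.59, adjusted p = 0.9997). Whether the probe set reads the deleted exons is not given, so each lens is called by its label. All 18 lens markers were bright enough to be tested. At PN56, 12 of the 18 were lower in lenses labelled Klf4CN and none was higher, against 7.01% and 6.05% of all genes, with summed signals of 928800 and 947800 in Klf4CN against 1236000 and 1398000 in WT lenses. None of the 9 tested photoreceptor markers, from the retina behind the lens, passed between genotypes, and the list summed to 20260 and 6351 in Klf4CN and 8393 and 7938 in WT lenses at PN56. Of 14 macrophage markers, 2 rose at PN56, Cd68 (log2 difference 2.74) and Tyrobp (2.42), and 0 fell. Of all 14 differences 7 were above 0 and 7 below, with a median of 0.14. The list summed to 5984 and 3309 in Klf4CN against 3277 and 3331 in WT lenses. None of 7 pigment cell markers passed at PN56 (limma, 2 with an unadjusted p under 0.05), but all 7 differences were below 0, and the list summed to 5774 and 5712 in Klf4CN against 9339 and 11160 in WT lenses. At E16.5 none of 11 markers of retinal progenitors and neurons passed (7 unadjusted), while all 11 were above 0, with a median of 1.66. None of the 7 pigment cell markers passed at that age (5 unadjusted), with 6 above 0, 1 below and a median of 1.845. Nor did any of 8 mesenchyme markers (5 unadjusted), with 7 above 0, 1 below and a median of 0.80. The part of these cells in the results was not tested. In whole lenses, fewer cells of a type and less RNA per cell cannot be told apart.

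The 4 arrays at PN56 did not stand evenly for the respiratory chain or for the genes of cytosolic ribosomal proteins. The median log2 signal of the ribosomal genes was 15.22 and 15.65 in Klf4CN replicates 1 and 2. In WT replicates 1 and 2 it was 14.8 and 15.34. Klf4CN replicate 2 was the highest of the 4 for 61 of the 78 subunits (78.2%, against 22.6% of all genes tested), and WT replicate 1 was the lowest for 47 (60.3%, against 23.9% of genes). For 36 subunits (46.2%, against 6.56% of genes) the order was Klf4CN replicate 2, Klf4CN replicate 1, WT replicate 2 and WT replicate 1 from high to low. The median log2 difference of the subunits between the 2 Klf4CN arrays was 0.44, and between the 2 WT arrays 0.23, against -0.04 and -0.02 over all genes. The 5′ probe set for 18S ribosomal RNA had the same order, with 5700 and 11010 in Klf4CN replicates 1 and 2, against 527.5 and 2870 in WT replicates 1 and 2. The ratio of 3′ to 5′ beta-actin signal, a measure of RNA length, was 1.6 and 1.45 in Klf4CN and 1.79 and 1.88 in WT lenses. Their part in the differences below was not tested, and the counts of subunits called at PN56, in all and by complex, are also given without Klf4CN replicate 2 or WT replicate 1.

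**Figure D1:**
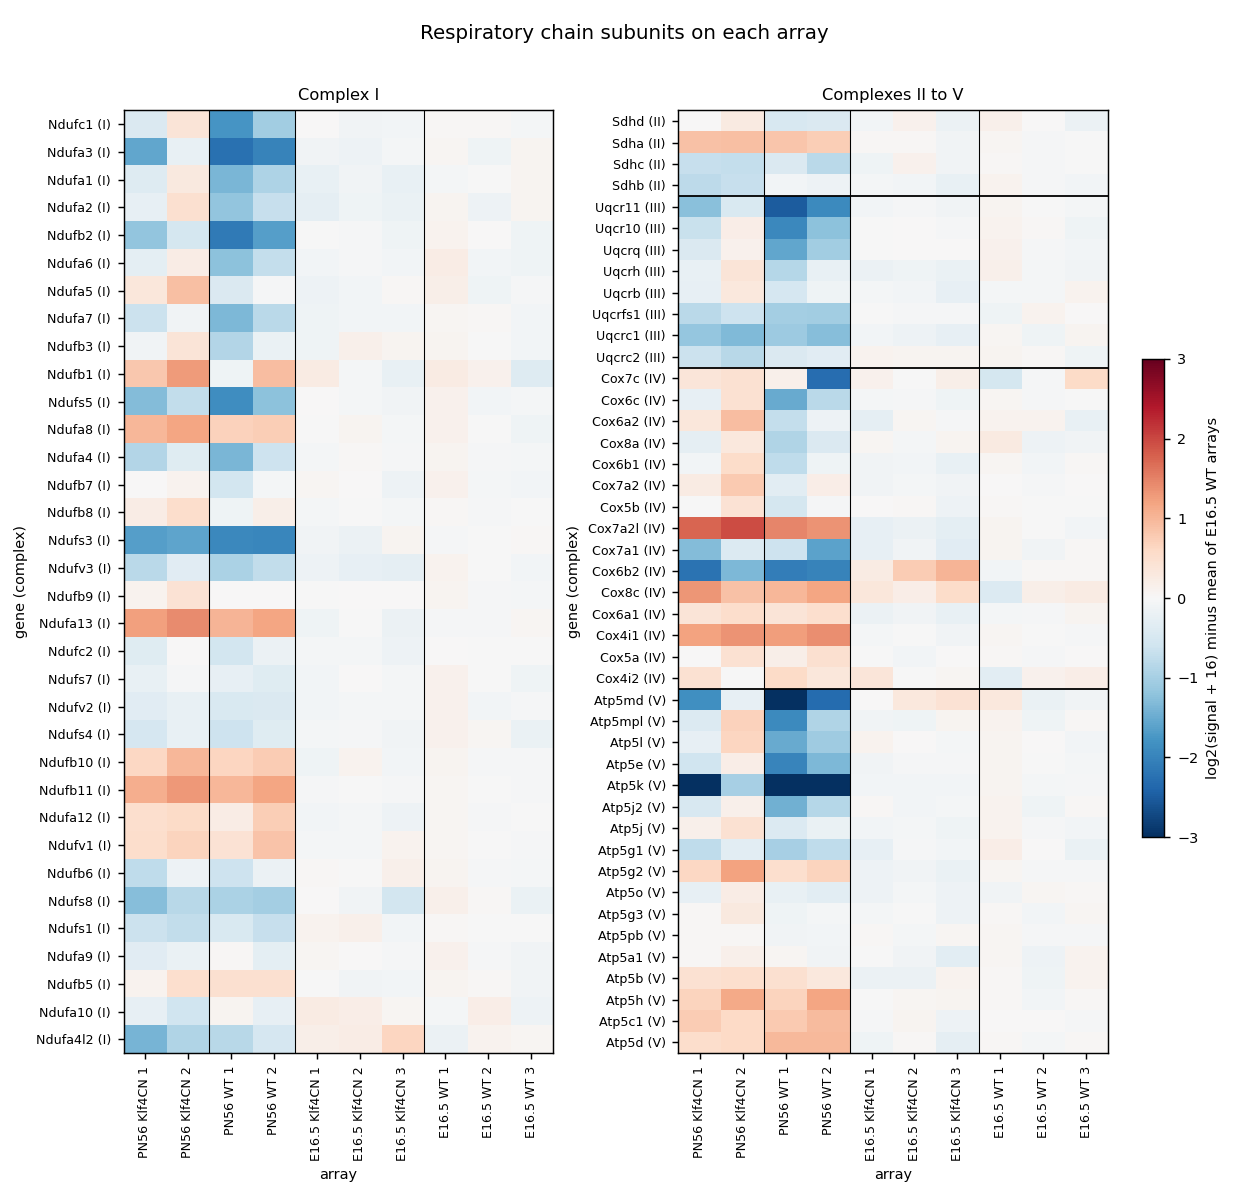
Signals of the 78 tested subunits on each of the 10 arrays, complex I at left and complexes II to V at right, with 1 row a gene and 1 column an array. Colour is log2(signal + 16) minus the mean of the 3 E16.5 WT arrays, red higher and blue lower, with the scale ending at 3 in each direction. Within each complex genes are ordered by their difference between Klf4CN and WT at PN56, and the upper rows are bluer on the 2 PN56 WT arrays than on the 2 PN56 Klf4CN arrays.

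At PN56 the subunits that were higher in lenses labelled Klf4CN included Atp5e and Atp5l of complex V, Uqcr11 and Uqcrq of complex III, Ndufa1 of complex I and Cox6c of complex IV, while Sdhb of complex II was lower. Of 78 subunits, 25 rose and 3 fell at an adjusted p under 0.05 (limma on log2(signal + 16), Benjamini-Hochberg over all 13432 genes), against 6.05% of all genes that rose and 7.01% that fell (13.1% in either direction). Their median log2 difference was 0.31, against -0.05 over all genes. Both Klf4CN arrays lay above both WT arrays for 42 subunits and below them for 5, against 21.7% and 29% of genes (50.7% in either direction). With each array centred on its median, 29 rose and 0 fell, against 6.77% and 2.68% of genes. Without WT replicate 1, 11 rose and 1 fell, against 4.67% and 3.42% of genes. Without Klf4CN replicate 2, 12 rose and 1 fell, against 3.75% and 4.11%. With both left out, a comparison added after these orders were seen that leaves 1 array a genotype and borrows its spread from E16.5, 9 rose and 4 fell, against 4.54% and 3.63% of genes, and the median was 0.08, against -0.02 over all genes. By complex, the numbers that rose without WT replicate 1, without Klf4CN replicate 2 and without both were 3, 5 and 2 in complex I, 3 each time in complex III, 3, 1 and 2 in complex IV and 2, 3 and 2 in complex V. In complex II none rose in these fits. In all, 10 of the 28 passed with all arrays and without each of the 4 PN56 arrays in turn: Atp5e, Atp5l, Cox6c, Ndufa1, Ndufb2, Ndufc1, Sdhb, Uqcr10, Uqcr11 and Uqcrq.

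**Figure D2:**
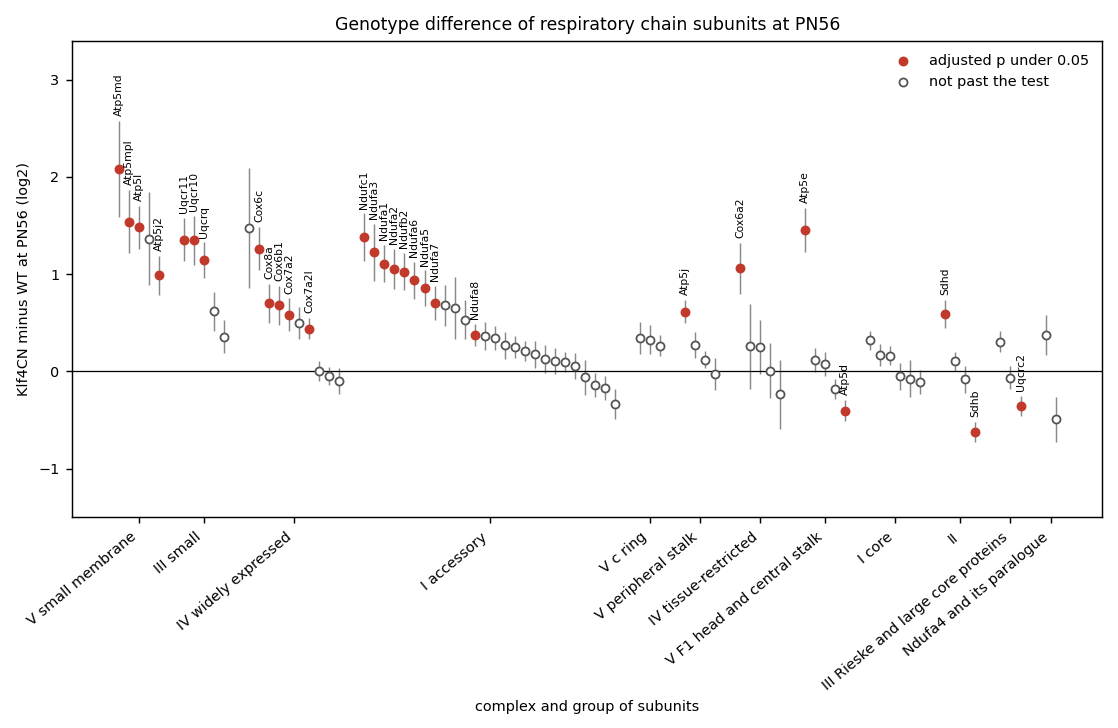
Log2 difference, Klf4CN minus WT at PN56, of each tested subunit (points) with its standard error (bars), grouped by complex and place in it. Filled red points had an adjusted p under 0.05 and are named. The small membrane subunits of complex V and the small subunits of complex III lie highest, with medians of 1.48 and 1.15, and the core subunits of complex I lie near 0, with a median of 0.06.

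In complex V, 6 of 17 subunits rose and 1 fell. Atp5e, the epsilon subunit in the central stalk, had signals of 9208 and 16025 in Klf4CN lenses, against 3530.2 and 5514 in WT lenses. Atp5l, subunit g of the membrane part, had 10005 and 18457 in Klf4CN lenses, against 4166 and 5656 in WT lenses. For both genes the lower Klf4CN array was above the higher WT array, and the Klf4CN arrays themselves differed, with replicate 2 at 1.74 times replicate 1 for Atp5e and 1.84 times for Atp5l. The log2 differences were 1.46 ± 0.23 for Atp5e and 1.48 ± 0.22 for Atp5l (SE, limma adjusted p = 0.00184 and 0.00153). With WT replicate 1 and Klf4CN replicate 2 both left out they were 0.74 and 0.82 (adjusted p = 0.00655 and 0.00721).

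Subunits e, f and g and 2 short proteins, Atp5md and Atp5mpl, form the small membrane group of complex V, which helps to join the enzyme into dimers. Of these 5, 4 rose. Atp5md had 2077 and 6294.5 in Klf4CN lenses, against 471.4 and 1494 in WT lenses (log2 2.08 ± 0.49, adjusted p = 0.0163). That was the largest difference of the 78 with all arrays, but it was 1.27 without WT replicate 1, 1.29 without Klf4CN replicate 2 and 0.47 without both, and passed in none of these fits (adjusted p = 0.127, 0.133 and 0.285). Atp5k, subunit e, was the member of the group that did not pass (1.36 ± 0.48, adjusted p = 0.081): it had 1503 and 7383 in Klf4CN lenses, against 1143 and 1448 in WT lenses, so 1 array carried its mean. Atp5mpl (1.54 ± 0.32, adjusted p = 0.00936) and Atp5j2, subunit f (0.99 ± 0.20, adjusted p = 0.00834), rose, but with the lowest and highest arrays both left out they had 0.48 and 0.37 and did not pass (adjusted p = 0.0828 and 0.106). Atp5j, coupling factor 6 of the peripheral stalk, rose by less (0.61 ± 0.12, adjusted p = 0.00656).

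Of the subunits of the catalytic head and central stalk, Atp5e rose, as given above, 1 fell and 3 did not pass. Atp5b, the beta subunit that makes ATP, had 25626 and 26262 in Klf4CN lenses, against 25940.3 and 23368 in WT lenses (log2 0.08 ± 0.12, adjusted p = 0.728). Atp5a1, the alpha subunit, also did not pass (0.12 ± 0.13, adjusted p = 0.596). Atp5d, the delta subunit of the central stalk, fell, with 13924 and 14602 in Klf4CN lenses, against 18869.7 and 18881 in WT lenses (-0.40 ± 0.11, adjusted p = 0.0275). A second probe set of Atp5d went the other way (0.18), and the call was lost when single arrays were left out (highest adjusted p 0.0914). The genes of the rotating c ring, Atp5g1, Atp5g2 and Atp5g3, code for the same mature protein, and their differences of 0.34, 0.33 and 0.26 did not pass (adjusted p = 0.192, 0.176 and 0.125).

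In complex III, 3 of 8 subunits rose and 1 fell. Uqcr11, a small subunit, had 3227 and 5629 in Klf4CN lenses, against 1344 and 2040.0 in WT lenses (log2 1.36 ± 0.22, adjusted p = 0.00256). Uqcrq had 5348.5 and 7879 in Klf4CN lenses, against 2453 and 3490.4 in WT lenses (1.15 ± 0.18, adjusted p = 0.00197). Uqcr10, a further small subunit, rose by 1.35 ± 0.25 (adjusted p = 0.00479), so that 3 of the 5 small subunits rose and Uqcrh (0.62) and Uqcrb (0.36) did not pass. Of the large ones, the core protein Uqcrc1 (-0.07) and the Rieske iron-sulphur protein Uqcrfs1 (0.31) did not pass. Uqcrc2, the other core protein, fell, with 7175 and 6300.3 in Klf4CN lenses, against 8372.5 and 8841 in WT lenses (-0.36 ± 0.10, adjusted p = 0.0413). A second probe set of Uqcrc2 was nearly as bright (mean signal 9822, against 10040) and had a difference of only -0.05. The call also ended when single PN56 arrays were left out, with differences of -0.45 to -0.26.

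In complex I, 9 of 26 accessory subunits rose, 0 of 6 core subunits rose and none of either fell. Ndufa1, a membrane subunit needed for assembly of the complex, had 26928 and 43099 in Klf4CN lenses, against 13499.7 and 18491 in WT lenses. Ndufc1, another small membrane subunit, had 16290.3 and 29134 in Klf4CN lenses, against 6479 and 10761 in WT lenses. Neither gene's genotypes overlapped, and the differences were 1.11 ± 0.19 and 1.38 ± 0.24 (adjusted p = 0.00304 and 0.0037). Ndufb2 (1.03) and Ndufa2 (1.05) were the next by p, and the other 5 that rose were Ndufa3, Ndufa5, Ndufa6, Ndufa7 and Ndufa8, with log2 differences of 0.38 to 1.23. Among the core subunits, which carry the flavin and the iron-sulphur clusters, differences ran from -0.11 to 0.32 and the smallest adjusted p was 0.061, that of Ndufs3.

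In complex IV, 6 of 15 tested subunits rose and none fell. Cox6c, a widely expressed small subunit, had 15665 and 25708 in Klf4CN lenses, against 6536.5 and 10697 in WT lenses (1.26 ± 0.22, adjusted p = 0.00376). Cox7a2l, which joins complexes III and IV into supercomplexes, had 10694.5 and 12339.6 in Klf4CN lenses, against 8828 and 8136 in WT lenses (0.44 ± 0.11, adjusted p = 0.0213). Cox8a (0.70), Cox6b1 (0.68) and Cox7a2 (0.58) also passed, but with adjusted p from 0.0408 to 0.0456. With the lowest and highest arrays both left out these last 3 had 0.17, 0.05 and 0.06. Cox4i1 (-0.05), the largest nuclear subunit and a site of regulation by ATP, and Cox6a1 (0.0033) did not pass.

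Of the 5 tested tissue-restricted forms of complex IV, 1 passed. Cox6a2, the heart and skeletal muscle form of Cox6a1, rose, with 488.2 and 745.7 in Klf4CN lenses, against 230.0 and 342.7 in WT lenses (1.06 ± 0.26, adjusted p = 0.02). It lost the call when single arrays were left out (highest adjusted p 0.143), and summed skeletal muscle markers were 1033 and 1188 in Klf4CN against 1453 and 1526 in WT lenses. Cox4i2, Cox6b2, Cox7a1 and Cox8c had differences of -0.23, 0.25, 0.26 and 0.01, all with adjusted p of 0.608 or more. Of the untested genes, Cox7b2, a testis form, had 7.5 and 2.2 in Klf4CN lenses, against 77.1 and 59.9 in WT lenses, and Cox8b and Ndufb4 overlapped between genotypes. The hypoxia-linked Ndufa4l2 had -0.49 ± 0.23 (adjusted p = 0.182) and its paralogue Ndufa4, now placed in complex IV, had 0.38 ± 0.21 (adjusted p = 0.261).

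Complex II, which is shared with the citric acid cycle and has no proton pump, went both ways. Sdhb, its iron-sulphur subunit, had 7913 and 8419 in Klf4CN lenses, against 12871 and 12236 in WT lenses. The 2 arrays of each genotype lay close together, and Sdhb fell by 0.62 on the log2 scale (SE 0.10, limma adjusted p = 0.0025), a call kept without any single PN56 array and with WT replicate 1 and Klf4CN replicate 2 both left out (-0.63, adjusted p = 0.024). With each array centred on its median its difference was -0.49 and the call ended (adjusted p = 0.0589). Sdhd, a membrane anchor, rose, with 2740.5 and 3292 in Klf4CN lenses, against 1955 and 2013 in WT lenses (0.59 ± 0.14, adjusted p = 0.0188). A dimmer second probe set of Sdhd had -0.03, and its call ended when single arrays were left out (highest adjusted p 0.119). The flavoprotein Sdha (0.10) and the other anchor, Sdhc (-0.08), did not pass.

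**Figure D3:**
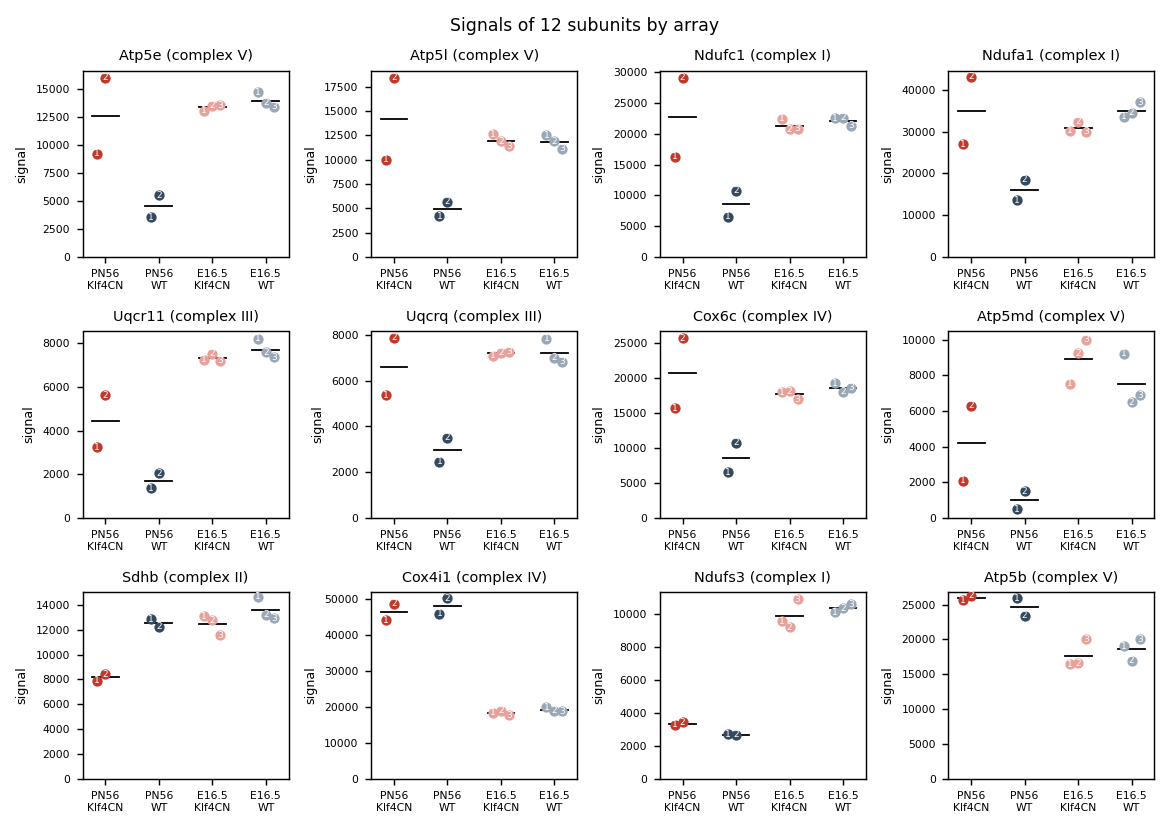
Linear signals of 12 subunits on each array, 1 panel a gene with its own axis from 0. Numbered points are replicates, red for Klf4CN and dark grey for WT at PN56, pale red and pale grey for the same genotypes at E16.5, and bars are group means. In the first 8 panels Klf4CN replicate 2 is the highest and WT replicate 1 the lowest PN56 array, while Sdhb is lower on both Klf4CN arrays and Cox4i1, Ndufs3 and Atp5b part the ages.

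The ratio of Klf4CN replicate 2 to Klf4CN replicate 1 had a median of 2.16 in the small membrane group of complex V and 1.52 in the small subunits of complex III, against 1.095 in the core of complex I and 0.887 in the large subunits of complex III. The ratio of WT replicate 2 to WT replicate 1 had medians of 1.5, 1.52, 0.97 and 0.986 in the same groups. In the tissue-restricted forms of complex IV, whose median genotype difference was 0.25, the ratios were 1.53 between the Klf4CN arrays and 1.05 between the WT arrays, and for Ndufa4 and its paralogue, with a median of -0.06, they were 1.44 and 1.48. These groups follow textbook places in each complex and were drawn up after the values were seen, so no test was made between them. For 16 of the 28 called genes there were 24 further probe sets, of which 20 had the same direction, that of Uqcrc2 by only -0.05. The other 4, with mean signals of 6333, 121.8, 471.3 and 61, belonged to Atp5d, Uqcrq, Sdhd and Ndufb2 in that order.

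RefSeq promoter windows of 300 bases (GRCm38.p6, from 250 before to 50 after the start) were found for 63 of the 78 tested subunits. They were searched on both strands for motifs of 7 letters. CATGCGC lies in the site of NRF1, a known regulator of respiratory genes, and CCGGAAG in that of ETS factors such as GABP. ATGGCGG lies in the site of YY1, and CACACCC is a form of the CACCC box that Kruppel-like factors bind. The NRF1 letters were in 19% of the subunits' windows, against 4.89% of those of all protein-coding genes, and the ETS letters in 25.4%, against 11.9%. The YY1 letters were in 12.7%, against 5.41%, and the CACCC letters in 3.17% (2 of 63, Atp5j2 and Ndufb7), against 7.95%. Among the 20 windows of subunits that rose at PN56 the shares were 20%, 35%, 15% and 5% in the same order, and among the 41 of subunits not past the test 17.1%, 19.5%, 12.2% and 2.44%. The windows were of similar base composition, with 58% G and C in the subunits and 55.9% in protein-coding genes. A match describes letters only.

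As examples of these windows, the called gene of smallest p at PN56 was taken from each complex among those with an entry. The 200 bases before the start of Atp5l and Cox7a2l held none of the searched letters and are not printed. Those of the other 3, 2 that rose and 1 that fell, are shown with capitals marking the motif found (YY1 in Ndufa1 on the reverse strand, ETS in Uqcr11, NRF1 in Sdhb).
Ndufa1 (chrX:37191239-37191438, minus strand): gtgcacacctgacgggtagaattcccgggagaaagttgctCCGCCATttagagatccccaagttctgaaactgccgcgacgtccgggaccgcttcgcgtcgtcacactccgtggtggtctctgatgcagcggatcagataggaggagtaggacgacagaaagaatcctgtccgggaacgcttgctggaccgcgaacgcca
Uqcr11 (chr10:80406822-80407021, minus strand): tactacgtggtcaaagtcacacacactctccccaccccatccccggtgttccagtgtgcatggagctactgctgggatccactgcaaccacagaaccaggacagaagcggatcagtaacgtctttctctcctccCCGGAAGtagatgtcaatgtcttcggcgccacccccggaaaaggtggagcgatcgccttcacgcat
Sdhb (chr4:140961071-140961270, plus strand): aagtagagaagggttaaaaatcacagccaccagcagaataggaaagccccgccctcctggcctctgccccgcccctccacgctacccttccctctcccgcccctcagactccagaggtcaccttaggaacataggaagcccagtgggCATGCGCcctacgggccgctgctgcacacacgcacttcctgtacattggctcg
The motif lay closest to the start in Sdhb and farthest from it in Ndufa1. The full windows of Atp5l, Uqcr11 and Sdhb each held both the NRF1 and the ETS letters. Of these genes, Atp5l and Uqcr11 rose and Sdhb fell, and the part of the letters in the direction was not tested.

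At E16.5 none of the 78 subunits passed the test (limma, adjusted p under 0.05), against 0.00744% of all genes (1 of 13432), and 2 of the 78 had an unadjusted p under 0.05. Differences ran from -0.24 to 0.68, with a median of -0.06. Klf4CN and WT arrays did not overlap for 2 subunits that were higher and 12 that were lower in Klf4CN, against 5.2% and 6.64% of genes. The smallest p was that of Cox6b2, a testis form, with 1159.8, 1664.5 and 1999 in Klf4CN lenses, against 921, 1007 and 1000.2 in WT lenses (0.68 ± 0.23, adjusted p = 0.949). All 3 Klf4CN arrays were above all 3 WT arrays for this gene. The other subunits among the 2 of smallest p in their complex, however large that p, had -0.24 for Cox7a2l, -0.23 for Ndufv3, 0.35 for Ndufa4l2, -0.16 for Uqcrc1, 0.09 for Uqcrc2, -0.15 for Atp5a1, -0.12 for Atp5d, -0.125 for Sdhb and -0.04 for Sdhd, all with an adjusted p of 0.9997. Cox6a1, with the third smallest p in complex IV, had -0.16, and the other isoforms of complex IV lay between -0.23 (Cox7a1) and 0.36 (Cox8c), and the c ring genes between -0.15 (Atp5g2) and -0.08 (Atp5g3). Atp5e, with 13060.5, 13522 and 13534 in Klf4CN lenses against 14729, 13777 and 13400.1 in WT lenses, shows the size of the spread at this age. The 18S probe set differed at E16.5 as well, with 20900 to 22780 in Klf4CN and 1155 to 2413 in WT lenses, while the subunits' median log2 signal was 13.18 to 13.21 in Klf4CN and 13.17 to 13.3 in WT lenses.

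The genotype effect differed between the ages for 15 subunits, all with a larger effect at PN56 (limma interaction, adjusted p under 0.05), against 2.62% of all genes in that direction and 2.05% in the other (4.67% in either direction). The median difference between the effects was 0.39, against -0.06 over all genes. Of the 15, the largest were Atp5e (1.52 ± 0.29, adjusted p = 0.0156), Atp5l (1.47 ± 0.29, adjusted p = 0.0164) and Ndufc1 (1.44 ± 0.31, adjusted p = 0.0251). By complex, 6 were in complex I, 3 in complex III, 2 in complex IV and 4 in complex V. In complex II, Sdhb (-0.49, adjusted p = 0.0531) and Sdhd (0.64, adjusted p = 0.0757) did not pass. Nor did the c ring genes, with 0.35 to 0.48, or the tissue-restricted forms, of which Cox6a2 had the largest (1.14, adjusted p = 0.0786). The count fell without WT replicate 1 or Klf4CN replicate 2 at PN56. Without WT replicate 1 the median was 0.29, against -0.06 over all genes. Without Klf4CN replicate 2 it was 0.22, against -0.03. With quantile normalization 13 were higher and 2 lower, against 2.76% and 2.1% of genes. The count was 0 when the variance was fitted without an intensity trend.

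Between the ages, the chain did not move as a block. In lenses labelled Klf4CN, 25 subunits were higher and 21 lower at PN56 than at E16.5, against 21.8% and 30.8% of all genes (52.6% in either direction). In WT lenses, 18 were higher and 40 lower, against 25.2% and 30.9% of genes (56.1%). The median difference was 0.11 in Klf4CN and -0.41 in WT lenses, against -0.10 and -0.04 over all genes. Both comparisons rest on unequal preparations: embryonic samples pooled 5 embryos and adult ones 3 mice, and the dap poly-A spike read 2.6 to 59.1 on the PN56 arrays against 4908 to 7005 on the E16.5 arrays, so age and preparation cannot be told apart. The split also moved with scaling, as did the share of all genes. With each array centred on its median, 12 were higher and 32 lower in Klf4CN lenses, against 12.6% and 42.5% of genes. In WT lenses 7 were higher and 58 lower, against 12.1% and 47.7%. With quantile normalization the counts were 17 and 33 in Klf4CN lenses, against 21.2% and 30.9% of genes. In WT lenses they were 15 and 50, against 23% and 32.9%. Without PN56 Klf4CN replicate 2 the subunits' median in Klf4CN lenses was -0.16, and without PN56 Klf4CN replicate 1 it was 0.33. The median over all genes was -0.10 in both of these fits.

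**Figure D4:**
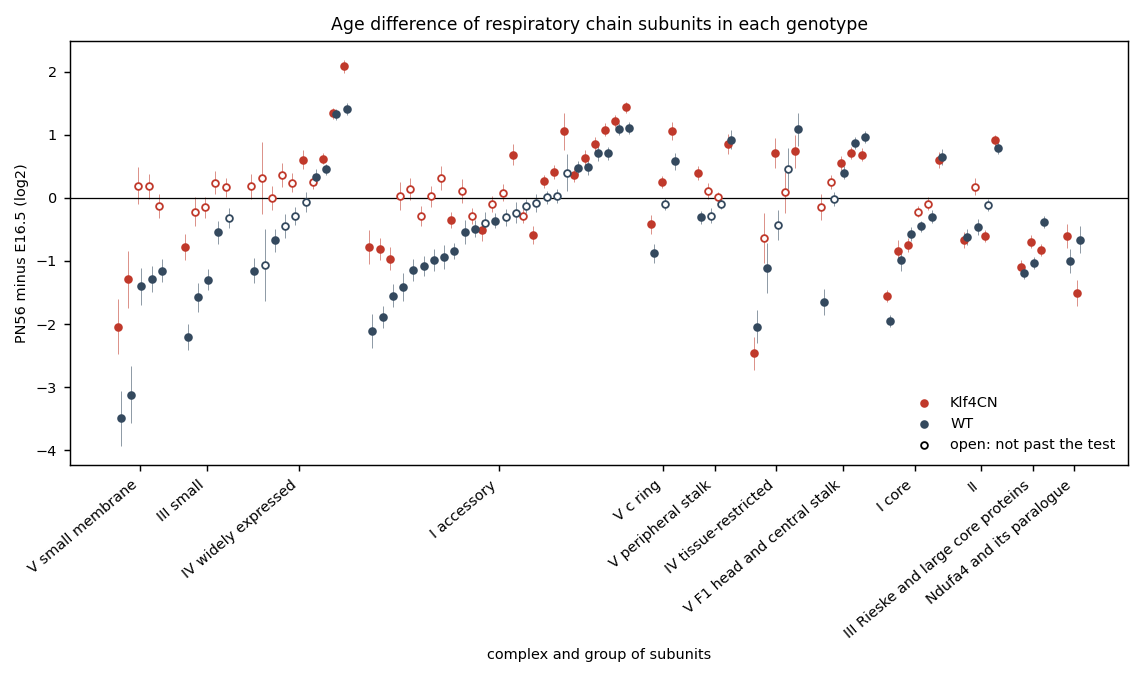
Log2 difference, PN56 minus E16.5, of each tested subunit in Klf4CN (red) and WT (dark blue) lenses, with standard errors, grouped by complex and place in it. Open points did not pass the test. The small subunits of complexes III and V lie below 0 in WT lenses, with medians of -1.295 and -1.40, against medians of -0.15 and -0.13 in Klf4CN lenses, where Atp5k (-2.04), Atp5md (-1.29) and Uqcr11 (-0.78) lie lower.

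In 17 subunits (21.8%, against 17.3% of all genes) the adult level was higher in both genotypes. Cox4i1 had 44166 and 48778 in Klf4CN lenses at PN56, against 17694 to 18869.8 at E16.5, and 45918 and 50259.7 in WT lenses at PN56, against 18699.6 to 19919.9 at E16.5. Its log2 differences were 1.34 ± 0.09 in Klf4CN and 1.32 ± 0.09 in WT lenses (limma adjusted p = 1.17e-07 and 1.06e-07). Cox7a2l (2.09 in Klf4CN and 1.41 in WT lenses), Ndufa13 (1.43 and 1.11), a complex I subunit also known for a role in cell death, and Ndufb11 (1.22 and 1.10) were also higher at PN56. Sdha (0.91 and 0.79) and Atp5c1, the gamma subunit that turns in the head (0.72 and 0.87), were higher too. Atp5d was higher by 0.69 and 0.97 on its brightest probe set, but its second probe set gave -0.64 and -0.93.

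In 18 subunits (23.1%, against 23.8% of all genes) the adult level was lower in both genotypes. Ndufs3, a core subunit of complex I, had 3264 and 3430.3 in Klf4CN lenses at PN56, against 9203 to 10926 at E16.5, and 2688 and 2674 in WT lenses at PN56, against 10137.5 to 10611 at E16.5. The ages were far apart in both genotypes, with log2 differences of -1.56 ± 0.09 in Klf4CN and -1.95 ± 0.09 in WT lenses (adjusted p = 6.86e-08 and 9.37e-09). Uqcrc1 (-1.09 in Klf4CN and -1.18 in WT lenses) and Cox6b2 (-2.47 and -2.04) were lower, as was Atp5k (-2.04 and -3.50). Atp5k was at 13778 to 13842.5 in Klf4CN lenses and 14187 to 15594.5 in WT lenses at E16.5, so the adult levels given above were lower on all 4 arrays. On their brightest probe sets, all 8 complex III subunits counted here were below 0 in WT lenses. Of these, 7 passed the test, the median was -1.105 and Uqcrb (-0.32, adjusted p = 0.0961) did not pass. With probe sets averaged, Uqcr10 and Uqcrq turned to 0.26 and 0.55. The chain subunit Cyc1, outside the symbols used here, had 0.13 in WT lenses (limma adjusted p = 0.26).

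A further 21 subunits (26.9%, against 6.81% of all genes) were lower at PN56 in WT lenses and did not pass in lenses labelled Klf4CN, and 1, Atp5j, was lower in WT (-0.31) and higher in Klf4CN lenses (0.39). Several of the small subunits described above are among them. Atp5e differed by -0.14 ± 0.21 in Klf4CN (adjusted p = 0.597) and by -1.66 ± 0.21 in WT lenses (adjusted p = 2.64e-05). Atp5l differed by 0.18 and -1.28, Ndufa1 by 0.14 and -1.15, Ndufc1 by 0.03 and -1.41, Uqcrq by -0.15 and -1.29, and Cox6c by 0.18 and -1.15 in Klf4CN and WT lenses. The test of this inequality is the interaction above, since a call in 1 genotype only does not show that the genotypes differ. Sdhb was the opposite case, with -0.61 ± 0.09 in Klf4CN (adjusted p = 0.000148) and -0.11 ± 0.09 in WT lenses (adjusted p = 0.314).

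The isoform pairs of complex IV and the c ring did not share 1 direction with age. Cox6a2 was higher at PN56 in Klf4CN (0.71, adjusted p = 0.0246) and did not pass in WT lenses (-0.43, adjusted p = 0.142). Cox7a1 had -0.63 (adjusted p = 0.205) and -1.11 (adjusted p = 0.0314), Cox8c 0.74 and 1.09 (adjusted p = 0.0309 and 0.00347) and Cox4i2 0.09 and 0.47 (not past) in Klf4CN and WT lenses. Of their widely expressed partners, Cox6a1 was higher in both (0.62 and 0.45), but its direction turned with quantile normalization (-0.14 and -0.15). Cox7a2 was higher in Klf4CN (0.61, but -0.21 with quantile normalization) and did not pass in WT lenses (-0.06), Cox8a was lower in WT (-0.67) and had -0.0015 in Klf4CN lenses, and Cox6b1 passed in neither (0.37 and -0.44). Atp5g1 was lower in both genotypes (-0.42 and -0.88) and Atp5g2 higher in both (1.06 and 0.58), while Atp5g3 was higher in Klf4CN (0.25) and did not pass in WT lenses (-0.10), and its rise turned to -0.27 with quantile normalization. Ndufa4l2 (-1.51 and -0.66) and Ndufa4 (-0.61 and -0.998) were lower in both.

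Other probe sets of the called genes did not always share these directions. In lenses labelled Klf4CN, 25 of 36 further probe sets of called genes had the same direction with age, and in WT lenses 37 of 53. Among the exceptions, in 1 or both genotypes, were the dimmer probe sets of Uqcrq, Uqcr10 and Ndufa3, and probe sets of Ndufs7, Ndufs8 and Cox6a1.

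Genes that build or feed the chain were counted at PN56 from further lists, against the 6.05% and 7.01% of all genes that rose and fell in lenses labelled Klf4CN. Of 21 genes of mitochondrial protein import, 7 rose and 1 fell (median 0.27), led by the inner membrane channel gene Timm23 (0.76), Timm10 (0.89) and Timm8b (1.22). Of 44 assembly factors, 7 rose and 2 fell (median 0.14), with Pet100 (1.02), the copper chaperone Cox17 (1.22) and Coa3 (0.70) of smallest p. Of 76 mitochondrial ribosomal proteins, 9 rose and 6 fell (median 0.13), and of 46 cytosolic ribosomal proteins 8 rose and 3 fell (median 0.20). With WT replicate 1 and Klf4CN replicate 2 both left out, 5 import genes rose and 0 fell, 1 assembly factor rose and 2 fell, and 1 mitochondrial ribosomal protein rose and 2 fell, and of the cytosolic ribosomal proteins 3 rose and 5 fell. The chain subunit Ndufab1, outside the symbols used here, rose by 0.51, while Atpif1 (0.51) and Cyc1 (-0.02) did not pass. None of 17 citric acid cycle genes rose and 2 fell, Idh3g (-0.56) and Fh1 (-0.71), with a median of -0.18. None of 17 regulators of mitochondrial genes and DNA passed (limma, 3 with an unadjusted p under 0.05), nor of 16 genes of electron carriers and quinone synthesis (4 unadjusted), nor of 7 carriers and channels (1 unadjusted). ND5, the 1 mitochondrially encoded subunit tested, had -0.01 ± 0.16 (adjusted p = 0.984). Of 8 mitophagy genes Sqstm1 rose (1.39) and Pink1 fell (-0.63), and of 17 genes of glycolysis Pkm rose (0.54) and Slc2a1 (-0.73) and Slc16a3 (-1.49) fell.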

How the data were processed

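Whole mouse lenses were measured on Affymetrix mouse 430 2 arrays, 1 per pooled preparation, 10 in all, with 3' IVT labelling, per the labels' protocols. The deposited values were linear intensities, 1 per probe set, made with GCOS 1.4 per the submitters' processing notes. On each array the mean of the deposited intensities after trimming 2% at each end was 500. Other upstream steps were not found in the labels, and no detection calls were used. The number of arrays limits the precision.

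Of 45101 probe sets, 64 were controls, 34958 carried 1 symbol, 932 several and 9211 none. For 34754, symbols were matched to RefSeq names (GRCm38.p6) and 0 changed. The brightest probe set by mean over the 10 arrays stood for a gene. Values were taken as log2(signal + 16), which understates changes of dim genes. A gene was tested when the mean of its log2 values reached the 40th percentile over the probe sets. That cutoff stands for a signal of 45.09 on the linear scale. All arrays entered 1 limma fit (version 3.58.1, R 4.3.3) with 4 group means and eBayes with an intensity trend. Tests were two-sided, with Benjamini-Hochberg adjustment over 13432 genes and a threshold of 0.05. The fit was also run on simulated data, with noise drawn independently for each gene and array. Shifts shared by many genes of an array were not simulated. Named genes were the called members, up to 4 of a complex and direction by smallest p, or the 2 of smallest p where none was called, with all complex II subunits, the c ring genes and the isoforms of complex IV and Ndufa4, and others given as ranges or counts. Further members named with values, such as Atp5md, Atp5mpl, Atp5k, Atp5a1, Atp5b, Uqcrh, Uqcrb and Uqcrfs1, and those singled out between ages, were chosen after their values were seen. The members and lists were chosen with earlier results of these data known. The list of cytosolic ribosomal proteins and the places of subunits within complexes were set after values were seen.

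Replicates of a group correlated at 0.9517 to 0.981 (Pearson, log2 values, across genes, which are not independent). Median intensities were 91 to 108.6 at PN56 and 63 to 76.9 at E16.5. Replicate numbers were not taken as pairs in the main fit, and whether they mark pairs was not settled. Deviations of same-numbered Klf4CN and WT arrays correlated at 0.0418 at PN56 and 0.0548 to 0.2706 at E16.5. Alternatives were quantile normalization, centring on the array median, offsets of 1 and 64, no filter or one at the 60th percentile, averaged probe sets, single probe sets, no trend, weighting of arrays, fits restricted to each pair of groups, a replicate block, and leaving out each array. Leaving out PN56 WT replicate 1 and Klf4CN replicate 2 together was added after the data were seen.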

Additional observations from a re-analysis of the deposited data

Results flagged for a closer look

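For 15 subunits the effect of the Klf4CN label differed between PN56 and E16.5 in a test of the difference itself (limma interaction, adjusted p under 0.05 over all genes), each with a larger effect at PN56. In complex I the differences between effects, on the log2 scale, were 1.29 for Ndufa1, 1.25 for Ndufa2, 1.44 for Ndufc1, 1.08 for Ndufb2, 1.0046 for Ndufa6 and 0.92 for Ndufa5. In complex III they were 1.43 for Uqcr11, 1.15 for Uqcrq and 1.36 for Uqcr10. In complex IV they were 0.67 for Cox7a2l and 1.34 for Cox6c. In complex V they were 1.52 for Atp5e, 1.47 for Atp5l, 0.70 for Atp5j and 1.03 for Atp5j2. With PN56 WT replicate 1 and Klf4CN replicate 2 both left out, 6 of the 15 passed.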

How the results depend on the processing

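With 2 arrays a genotype at PN56, single arrays set many calls. At E16.5 no subunit was called under any alternative. At PN56 the count of 28 was 17 with no intensity trend, 18 with array weights, 18 in a fit on the 2 compared groups, 12 to 41 when 1 array was left out (the lowest without WT replicate 1 at 12 and Klf4CN replicate 2 at 13) and 13 with both of these left out. Of all genes, 4.06% were higher and 4.66% lower with no intensity trend. The shares were 2.68% and 2.03% with array weights, and 2.88% and 3.1% in the fit on the 2 compared groups. Centring gave 29 higher and 0 lower, against 6.77% and 2.68% of genes. Quantile normalization gave 21 and 3, against 6.92% and 6.7%. The direction of all 28 held under every alternative, but few of these could have turned it. Most compared the same group means of the same probe set. Others left out arrays of groups that did not overlap. Further probe sets of Atp5d, Uqcrq, Sdhd and Ndufb2 went the other way. For the interaction the count of 15 was 0 with no intensity trend (limma, 44 subunits with an unadjusted p under 0.05 in the fit with the trend), 8 with both arrays left out, and 2 to 31 with 1 array left out. It fell below 10, to 4 to 9, also without any of the 3 E16.5 Klf4CN arrays, E16.5 WT replicates 1 or 2, or PN56 Klf4CN replicate 2, and it reached 31 when Klf4CN replicate 1 of PN56 was dropped and 24 when WT replicate 2 of that age was. With 1 array left in a group, it is assumed to vary like the others. Whether replicate numbers mark pairs was not settled. With a replicate block the counts were 38 at PN56, 31 for the interaction and 0 at E16.5. Of all genes, 7.54% were then higher and 8.54% lower at PN56, and 3.92% and 3.17% for the interaction. For age the counts were 46 in Klf4CN lenses, against 20.8% of genes higher and 29.4% lower, and 59 in WT lenses, against 24.1% and 29.5%. In the main fit 52.6% of all genes were called with age in Klf4CN and 56.1% in WT lenses. Age counts ran from 39 to 49 in Klf4CN and 51 to 62 in WT lenses with 1 array left out. Centring moved the median of all genes between ages to -0.45 in Klf4CN and -0.56 in WT lenses, against -0.10 and -0.04 as deposited. Some age differences turned. With quantile normalization Atp5g3 had -0.27, Cox6a1 -0.14 and Cox7a2 -0.21 in Klf4CN, and Cox5a -0.17 and Cox6a1 -0.15 in WT lenses. With centring Atp5g3 had -0.0934 and Ndufb9 -0.0764 in Klf4CN, and Atp5b -0.11, Cox5a -0.18, Cox6a1 -0.0618, Ndufa12 -0.0331 and Ndufb5 -0.043 in WT lenses. With probe sets averaged Ndufs8 had 0.0545 in Klf4CN, and Cox5a -0.0214, Cox6a1 -0.22, Ndufs7 0.32, Uqcr10 0.26 and Uqcrq 0.55 in WT lenses. The cause of these turns was not tested.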
